A study of Homo sapiens with 4 samples.

Results

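The 59 genes described here encode the NF-κB transcription factors and their regulators, chemokines, cytokines, cytokine receptors, STAT3 with its SOCS inhibitors, and enzymes and adhesion molecules induced in inflammation. They were chosen by name, under a rule that uses no measured value, from 40205 genes listed for each library. All were found, 58 by symbol and *CXCL8* under its older symbol *IL8*. RNA-seq had been carried out on human lung adenocarcinoma cells transfected for 24 h with control siRNA (NC 1 and NC 2) or with siRNA against circZFR (si-circZFR 1 and si-circZFR 2), a circular RNA spliced from exons of *ZFR*. The question behind the comparison was how mRNA profiles differ once circZFR is silenced. Both groups were grown in RPMI with serum and differed, by their labels, only in the siRNA. The labels do not say whether the libraries of a group came from separate cultures, so that the p-values below measure the spread between these libraries, which may be technical.

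Libraries held between 11040050 and 12816868 reads, and the 59 genes took between 55274 and 65443 of them. *ZFR*, the host gene of the circle, was measured at 26.0 and 31.9 scaled RPKM in the NC libraries and at 5.25 and 4.63 after silencing, and passed the test (log2FC −2.33, FDR = 0.0388). These reads cannot tell the circle from the linear transcript. The article reports, by RT-PCR, that its siRNA against the circle had no detectable effect on *ZFR*, which differs from the level measured here. Whether differences between the siRNA groups below go with the circle or with *ZFR* was not tested. The labels name H1299 cells, whereas the design text and the article name A549 cells. *CDH1*, a transcript that H1299 lacks, was present in every library (8.52 to 21.7 scaled RPKM) and higher in both si-circZFR libraries, which goes against the H1299 label. Other markers of the lines did not all point the same way. *VIM*, listed for H1299, had 528 to 665, and of the A549 markers *AKR1B10* had 1296 to 1677, whereas *EPCAM* (0.397 to 2.66) and *FGB* (0.775 to 2.60) were low. Of 13 markers of white blood cells, fibroblasts and endothelium, 11 were below 1 scaled RPKM in every library and 5 (*PTPRC*, *CD3E*, *COL1A2*, *LUM* and *DCN*) had no read. Their summed level was 7.38 to 7.70 in NC and 9.35 to 10.5 in si-circZFR, most of it from *CD14*, and the part of other cells in the results below was not tested.

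NF-κB is a family of dimeric transcription factors that inhibitor proteins (IκB) hold in the cytoplasm. Signals from TNF, interleukin-1 or Toll-like receptors run through adaptors to the IκB kinase (IKK), which marks IκB for degradation and lets the dimers enter the nucleus. Their target genes include chemokines, cytokines and the inhibitors themselves. Cytokines of the interleukin-6 family signal through the shared receptor chain gp130 to STAT3, and SOCS proteins limit that response. Many lung adenocarcinoma cells make such chemokines and cytokines themselves.

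Levels are given as scaled RPKM, which is a read count divided by gene length and library depth (RPKM) and then by 1 scaling factor per library. Differences are given as the ratio of group means and as log2FC, the difference of means on log2(scaled RPKM + 1), which understates differences of low genes. They were tested by limma across all 13885 genes that reached an RPKM of 1 in 2 or more libraries, with Benjamini-Hochberg adjustment over all of them (FDR). Of the 59 genes, 53 passed this filter and 6 did not. In bulk RNA, fewer cells that express a gene and less RNA per cell cannot be told apart.

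None of the 53 genes tested was called at FDR under 0.05 with |log2FC| over 1 by limma, against 0.0576% of all genes tested. Their smallest FDR was 0.0661, for *IL1R1*. At an unadjusted p under 0.05, 8 genes (15.1%) were higher in si-circZFR, against 10.1% of all genes tested, and 9 (17%) were lower, against 11.5%. In 18 genes (34.0%) both si-circZFR libraries lay above both NC libraries and in another 18 both lay below, against 28.1% of all genes in each direction. The 18 above include *IL6*, which passed the filter through the si-circZFR libraries alone. The median log2FC was 0.07, with 0.01 over all genes tested, and the values ran from −1.48 for *CCL2* to 1.37 for *IL1R1*. By limma-voom on the recovered reads, 8 of the genes (15.1%) were called, against 2.19% of all genes tested (*CCL2*, *CXCL1*, *CXCL16*, *IL11*, *IL1R1*, *IL6R*, *PTGS2* and *TRAF1*), so that the call of 0 depends on the test.

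**Figure D1:**
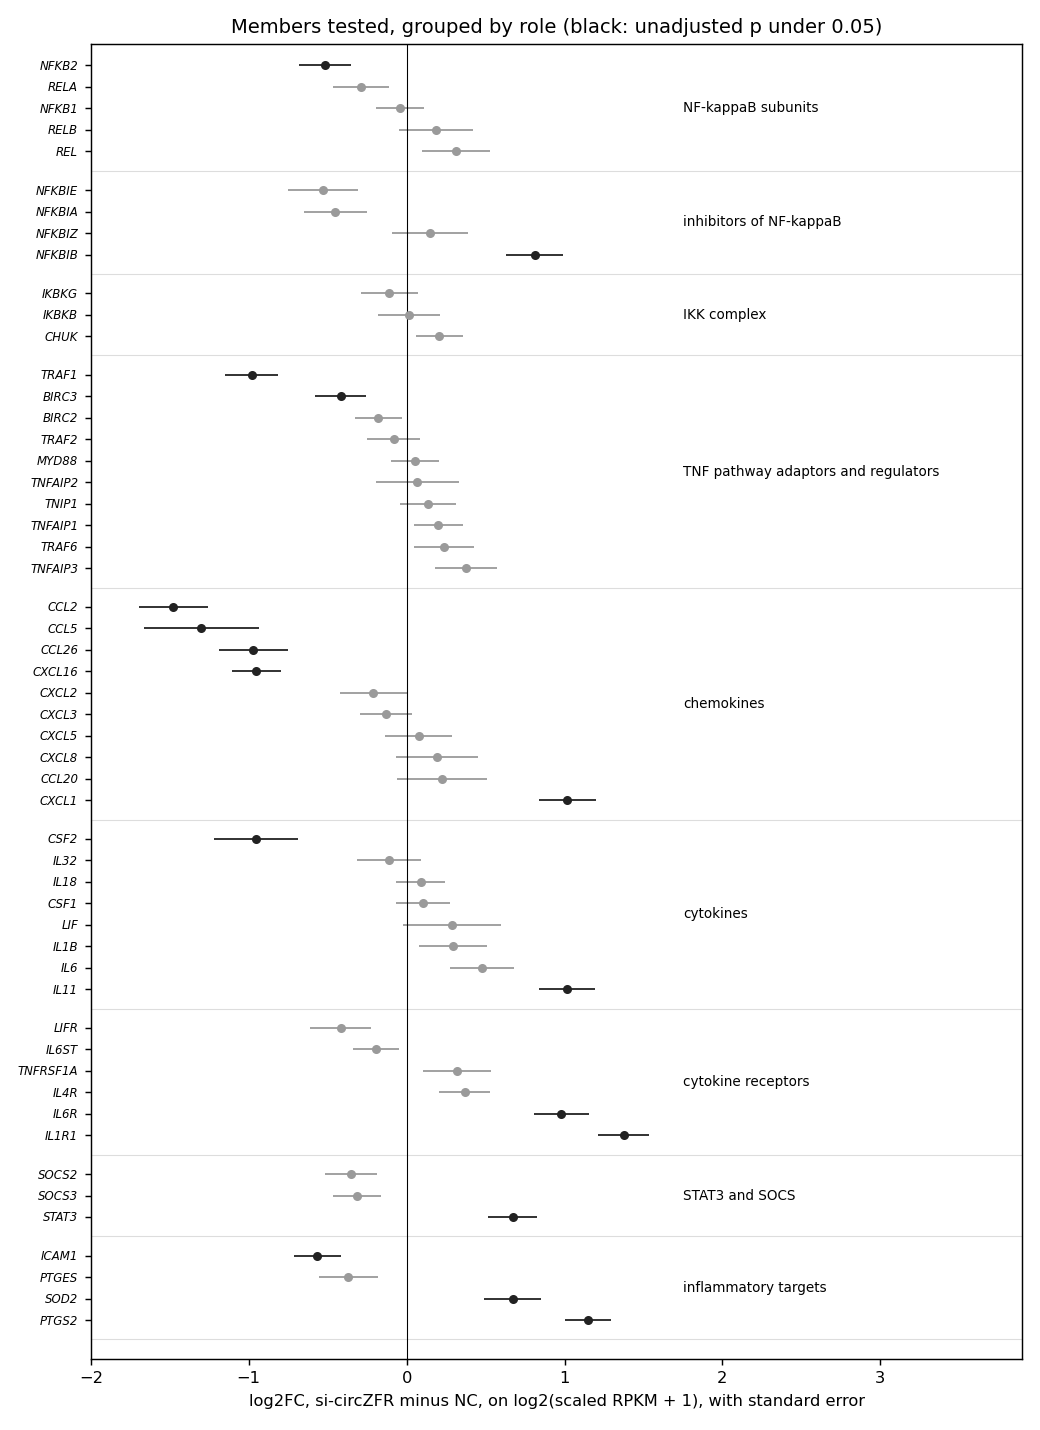
The horizontal axis is log2FC (si-circZFR minus NC, on log2 of scaled RPKM + 1) and each point is 1 of the 53 genes tested, with its standard error from limma, grouped by role. Points in black have an unadjusted p under 0.05. They number 8 to the right of 0 and 9 to the left, and 4 of the 9 on the left are chemokines.

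By mean level over the 4 libraries, 5 genes were above 100 scaled RPKM, 29 between 10 and 100, 19 between 1 and 10 and 6 below 1. *TNFAIP2*, a gene induced by TNF, had the highest mean level, with 298 and 197 scaled RPKM in NC and 259 and 250 in si-circZFR. The si-circZFR values lay between those of the NC libraries. *TNFRSF1A*, the main receptor for TNF, came next with 158 and 175 in NC and 233 and 185 in si-circZFR. *TNIP1*, which binds the ubiquitin-editing protein A20, had 124 and 126 in NC and 134 and 141 in si-circZFR. For *TNFRSF1A* and *TNIP1* both si-circZFR libraries were above both NC libraries, with log2FC of 0.32 ± 0.21 (SE) and 0.14 ± 0.18 and FDR of 0.425 and 0.677. *CXCL5* and *SOD2*, the other genes of this level, are described with their families.

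Among the 5 NF-κB subunits, *NFKB2*, which encodes the precursor p100 of p52, stood lower after silencing. Its level was 80.7 and 73.4 scaled RPKM in the NC libraries, against 51.8 and 55.2 with circZFR silenced. The groups did not overlap, and the ratio of means was 0.695 (log2FC −0.52 ± 0.17, FDR = 0.169). *RELA*, the subunit p65 that carries a transactivation domain, had 55.2 and 62.8 in NC and 51.9 and 44.6 in si-circZFR, again without overlap but closer together (log2FC −0.29 ± 0.18, FDR = 0.383). *NFKB1*, which encodes p105 and p50, was nearly equal between groups, at 12 and 10.9 in NC and 10.8 and 11.4 in si-circZFR. *RELB* and *REL* overlapped between groups. In mean level the order was *NFKB2*, *RELA*, *RELB*, *NFKB1* and *REL*. *NFKB2* was above *RELA* in both NC libraries and in si-circZFR 2, whereas in si-circZFR 1 the values were level (51.8 and 51.9).

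The inhibitors differed in direction. *NFKBIB*, encoding IκBβ, had 11.1 and 14.6 scaled RPKM in NC and 23.3 and 23.0 in si-circZFR, where both libraries were higher (ratio 1.80, log2FC 0.81 ± 0.18, FDR = 0.102). *NFKBIA*, encoding IκBα, the inhibitor that NF-κB itself induces, had 69.6 and 89.6 in NC and 61.1 and 54.2 in si-circZFR, lower in both (ratio 0.724, log2FC −0.45 ± 0.20, FDR = 0.257). *NFKBIE*, encoding IκBε, was lower in both libraries as well (ratio 0.671, FDR = 0.240), and *NFKBIZ*, which encodes a nuclear IκB protein, overlapped. *NFKBIA* remained the most abundant inhibitor transcript in every library.

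Differences in the IKK complex were small. *IKBKB*, encoding the catalytic subunit IKKβ, had 14.9 and 10.8 scaled RPKM in NC and 12.3 and 13.5 in si-circZFR. For *CHUK*, the catalytic subunit IKKα, the values were 8.70 and 8.65 against 10.2 and 10.1, both higher (log2FC 0.21 ± 0.15, FDR = 0.448). *IKBKG*, the regulatory subunit NEMO, had 5.0 and 4.38 against 3.81 and 4.75. *IKBKG* has a near-identical pseudogene copy, and how reads that map to several places were counted is not given in the sources used here, so its values are uncertain.

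Of the 11 adaptors and regulators of TNF and Toll-like receptor signalling, 10 were tested and *TLR4*, the receptor for bacterial lipopolysaccharide, had 6 reads over all libraries. *TRAF1*, an adaptor of TNF receptors that NF-κB induces, had 12.4 and 12.8 scaled RPKM in the NC libraries, against 5.27 and 6.59 with circZFR silenced. The groups lay far apart (ratio 0.470, log2FC −0.98 ± 0.17, FDR = 0.0820). *BIRC3*, the ubiquitin ligase cIAP2 that works with TRAF proteins, had 22.0 and 21.9 in NC and 14.9 and 17.6 in si-circZFR (ratio 0.740, log2FC −0.42 ± 0.16, FDR = 0.216). Its close relative *BIRC2* was lower by less (ratio 0.870, FDR = 0.515), and *TRAF2*, with which TRAF1 forms mixed trimers, overlapped between groups at 11.2 to 13.6. *TNFAIP3*, encoding A20, which ends NF-κB signalling, was higher in both si-circZFR libraries (ratio 1.31, FDR = 0.315), as were *TNFAIP1* and *TRAF6*. *MYD88*, the adaptor of Toll-like and interleukin-1 receptors, stayed between 20.1 and 21.9 in all libraries.

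Chemokines, secreted proteins that attract white blood cells, gave the widest spread. Of 12 genes 10 were tested, and at an unadjusted p under 0.05 there were 4 lower (40%) and 1 higher (10%), against 11.5% and 10.1% of all genes tested. *CCL2*, which attracts monocytes, had the lowest log2FC of all genes described here. Its level was 64.8 and 58.7 scaled RPKM in NC and 26.0 and 17.8 in si-circZFR, from 569, 509, 223 and 163 reads. The groups lay far apart, and the ratio of means was 0.354 (log2FC −1.48 ± 0.22, FDR = 0.0782). *CCL5*, a chemokine for T cells and monocytes, had 8.32 and 14.2 in NC and 5.59 and 2.55 in si-circZFR. The groups were apart, but its libraries varied more than those of any other gene here in the si-circZFR group (ratio 0.361, log2FC −1.30 ± 0.37, FDR = 0.142). *CXCL16*, a chemokine that is also made as a membrane protein, had 8.91 and 8.54 against 4.20 and 3.87, a small spread within each group (ratio 0.462, log2FC −0.95 ± 0.16, FDR = 0.0812). *CCL26*, the eosinophil attractant eotaxin-3, was low, with 17 and 25 reads in NC and 7 and 8 in si-circZFR, or 2.58 and 3.84 against 1.09 and 1.16 scaled RPKM (log2FC −0.97 ± 0.22, FDR = 0.103).

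*CXCL1* was the 1 chemokine with a higher level at an unadjusted p under 0.05. It attracts neutrophils and lies with *CXCL8*, *CXCL5*, *CXCL3* and *CXCL2* in a cluster on chromosome 4. It had 26.5 and 21.9 scaled RPKM in NC and 53.5 and 46.2 in si-circZFR (ratio 2.06, log2FC 1.02 ± 0.18, FDR = 0.0820). Its neighbours, which bind the same receptor family, overlapped between groups. *CXCL2* had 36.6 and 25.9 in NC against 28.2 and 24.8, and *CXCL3* 15 and 14.3 against 14.7 and 12.1. *CXCL5* had 122 and 126 against 114 and 151, and *CXCL8*, encoding interleukin-8, 21.0 and 34.5 against 28.6 and 33.6. In both NC libraries the level of *CXCL1* was below that of *CXCL2*, and in both si-circZFR libraries it was above. The transcripts of *CXCL1*, *CXCL2* and *CXCL3* are near-identical over long stretches, so reads could be split between them by the counting, which makes the difference between them uncertain. *CCL20*, which attracts CCR6-bearing cells, also overlapped (8.0 to 14.8). *CXCL10*, an interferon-induced chemokine, had 0 reads in all libraries, where 3 reads, the limit that a count of 0 allows, would be a CPM (reads relative to the library total, without gene length) of 0.234 to 0.272, for counting error only. *CX3CL1* had 34 and 47 reads in NC and 17 and 17 in si-circZFR and did not pass the filter.

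**Figure D2:**
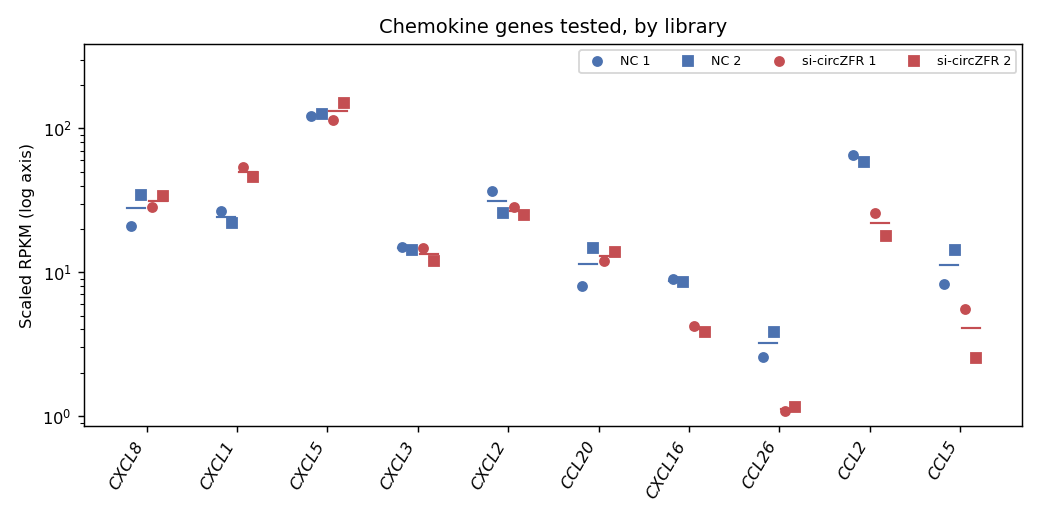
Scaled RPKM (log axis) of the 10 chemokine genes tested, with 1 point for each library (blue for NC, red for si-circZFR, circles for replicate 1 and squares for replicate 2) and a line at each group's mean. Only *CXCL1* has both red points above the blue ones, and *CXCL16*, *CCL26*, *CCL2* and *CCL5* have both below.

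The promoters of these genes are shown for the NF-κB binding letters they share, since *CXCL1* had its groups apart and neighbours with the same site did not. Each of the following windows holds a match to the 10-base κB consensus or to the 9 bases GGAATTTCC (or GGAAATTCC, its reverse complement), in capitals, within 250 bases before the RefSeq transcript start (GRCh38.p14, both strands searched, printed along the gene's strand, overlapping matches joined).
CXCL1, 79 bases before its start, chr4:73869299-73869339, plus strand: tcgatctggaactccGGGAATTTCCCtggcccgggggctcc
CXCL2, 78 bases before its start, chr4:74099248-74099288, minus strand: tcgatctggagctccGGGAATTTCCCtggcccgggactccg
CXCL3, 79 bases before its start, chr4:74038743-74038783, minus strand: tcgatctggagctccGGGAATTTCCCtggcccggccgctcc
CXCL5, 91 bases before its start, chr4:73998743-73998783, minus strand: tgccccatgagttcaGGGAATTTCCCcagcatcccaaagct
CXCL8, 91 bases before its start, chr4:73740463-73740501, plus strand: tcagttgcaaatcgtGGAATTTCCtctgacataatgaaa
NFKBIB, 28 bases before its start, chr19:38899926-38899966, plus strand: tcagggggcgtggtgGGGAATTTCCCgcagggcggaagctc
NFKBIA, 81 bases before its start, chr14:35404806-35404845, minus strand: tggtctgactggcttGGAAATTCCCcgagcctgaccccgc
NFKB2, 107 bases before its start, chr10:102394456-102394496, plus strand: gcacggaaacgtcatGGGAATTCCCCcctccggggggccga
ICAM1, 186 bases before its start, chr19:10270919-10270957, plus strand: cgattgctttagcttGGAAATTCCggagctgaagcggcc

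The windows of *CXCL1* and *CXCL3* were identical at 38 of 41 bases and those of *CXCL1* and *CXCL2* at 35 of 41, with the same 11 letters in capitals, whereas of the 3 genes only *CXCL1* had its groups apart. That difference between the 3 genes is uncertain, since reads could be split between their near-identical transcripts. *NFKBIB*, with the same letters as *CXCL1*, was higher in both si-circZFR libraries, and *NFKBIA*, *NFKB2* and *ICAM1* were lower in both. Of the 43 genes tested that had a promoter in the RefSeq table, 21 (48.8%) held a match, compared with 15.9% of 8760 genes tested and 10.1% of all 35116 promoters. Among these 21 genes, both si-circZFR libraries were above both NC libraries in 7, below in 5 and overlapping in 9, where 28.1% of all genes tested lay above and 28.1% below. The 7 include *IL6*, which passed the filter through the si-circZFR libraries alone. Among the 22 without a match the numbers were 10, 8 and 4. A match is a string of letters and shows neither binding nor control.

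Among the 11 cytokines, 8 were tested. *IL11*, a cytokine of the gp130 family, had 1.33 and 1.56 scaled RPKM in NC (37 and 43 reads) and 3.78 and 4.09 in si-circZFR (103 and 119 reads). Both groups were tight, and the ratio of means was 2.72 (log2FC 1.01 ± 0.18, FDR = 0.0820). *IL6*, the founding member of that family, was near the lower limit of the filter, with 16 and 11 reads in NC and 25 and 26 in si-circZFR (0.962 and 0.670 against 1.54 and 1.5 scaled RPKM, log2FC 0.48 ± 0.20, FDR = 0.244). It passed the filter through the si-circZFR libraries alone, so a difference was built into its selection. *LIF*, another gp130 cytokine, had 57.3 and 29.8 in NC and 51.6 and 50.0 in si-circZFR. The NC libraries differed by more for *LIF* than for any other gene tested here, and the si-circZFR values lay between them. *CSF2*, encoding the growth factor GM-CSF, went the other way, with 2.72 and 4.51 in NC and 1.67 and 1.04 in si-circZFR (25, 41, 15 and 10 reads, ratio 0.375, log2FC −0.96 ± 0.26, FDR = 0.137). *IL1B*, a ligand of the interleukin-1 receptor, had 1.65 and 1.33 against 1.69 and 2.45 scaled RPKM and an FDR of 0.452. *IL18* (31.1 to 35.0) was higher in both si-circZFR libraries by a ratio of 1.06, and *IL32* and *CSF1* overlapped. *TNF* had 9 to 18 reads a library, *IL1A* 14 to 31 and *TNFSF10*, the death ligand TRAIL, 3 to 9, and none of them passed the filter.

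Transcripts of many cytokines carry AU-rich elements in the 3′ untranslated region, to which proteins that control mRNA decay bind. The core nonamer TTATTTATT was searched in the 3′ untranslated region of the GENCODE transcript (GRCh38) of each gene, and 30 bases around the first match are shown, with the nonamer in capitals, for genes that had higher and lower values and for *CXCL2*, which overlapped.
CXCL1, with 3 matches: agtcttctatTTATTTATTtattcattagt
CXCL2, with 5 matches: agtcttctatTTATTTATTtatttatttat
IL11, with 6 matches: aagccagatcTTATTTATTtatttatttca
PTGS2, with 1 match: atgatcatatTTATTTATTtatatgaacca
CSF2, with 3 matches: tttaaaatatTTATTTATTtatttatttaa

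The nonamer, counted with overlaps on the transcribed strand, was present in 16 of the 53 genes tested (30.2%), compared with 9.34% of 10426 genes tested, at median lengths of 1252 and 1318.5 bases. In 7 of the 16 genes both si-circZFR libraries lay above both NC libraries, in 4 they lay below and in 5 they overlapped. Without the nonamer the numbers were 11, 14 and 12 of 37, and over all genes tested 28.1% lay above and 28.1% below. The 11 include *IL6*, which passed the filter through the si-circZFR libraries alone. The median log2FC was 0.26 with the nonamer and 0.02 without, a difference that was not tested. *CXCL1*, *IL11* and *PTGS2*, with higher values, and *CSF2*, with lower values, all held it.

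The cytokine receptors held the highest log2FC of the 59 genes. *IL1R1*, the signalling receptor for interleukin-1, had 5.46 and 4.53 scaled RPKM in the NC libraries, against 14.7 and 14.3 with circZFR silenced, from 350, 287, 924 and 954 reads. The si-circZFR libraries were close to each other and far above NC (ratio 2.90, log2FC 1.37 ± 0.16, FDR = 0.0661). *IL6R*, the ligand-binding chain for interleukin-6, had 4.22 and 3.64 in NC and 7.97 and 9.49 in si-circZFR (ratio 2.22, log2FC 0.98 ± 0.17, FDR = 0.0820). *IL6ST*, which encodes gp130, the chain that signals for interleukin-6, interleukin-11 and LIF, had 23.3 and 23.5 in NC and 20.3 and 20.3 in si-circZFR. It was lower in both libraries by a small amount (ratio 0.869, log2FC −0.19 ± 0.15, FDR = 0.473) and stayed above *IL6R* in every library. *LIFR*, the second chain of the LIF receptor, had 3.44 and 2.67 against 1.86 and 2.20 (log2FC −0.42 ± 0.19, FDR = 0.276). *IL4R* was higher in both libraries (ratio 1.31, FDR = 0.258).

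*STAT3*, the transcription factor downstream of gp130, had 35.5 and 34.2 scaled RPKM in NC and 56.7 and 55.5 in si-circZFR. The spread within each group was small beside the distance between them (ratio 1.61, log2FC 0.67 ± 0.15, FDR = 0.108). *SOCS3*, a STAT3 target that inhibits gp130 signalling, was lower in both si-circZFR libraries (14.6 and 14.1 against 11.9 and 10.7, FDR = 0.288), and so was *SOCS2* (ratio 0.730, FDR = 0.277). Transcripts of the interleukin-6 axis had both signs, and none of them was called by limma. *IL11*, *IL6R* and *STAT3* were higher in both si-circZFR libraries, with FDR of 0.0820 to 0.108. *IL6ST*, *LIFR*, *SOCS2* and *SOCS3* were lower in both, with FDR of 0.276 to 0.473. *IL6* was also higher in both (FDR = 0.244), but it passed the filter through the si-circZFR libraries alone. *LIF* overlapped between groups. Of all genes tested, 28.1% lay above in both libraries and 28.1% below.

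**Figure D3:**
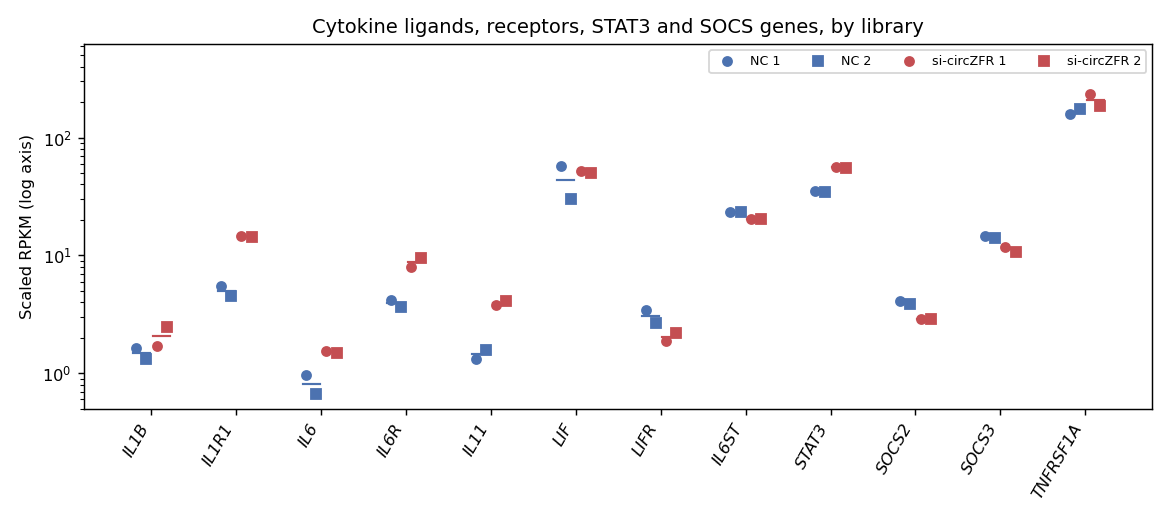
Scaled RPKM (log axis) of cytokine ligands, their receptors, STAT3 and SOCS genes, with 1 point for each library (blue for NC, red for si-circZFR, circles for replicate 1 and squares for replicate 2) and a line at each group's mean. The red points of *IL1R1* (14.3 and 14.7) lie above the blue ones (4.53 and 5.46), and *LIF* shows the distance between its NC libraries (57.3 and 29.8).

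Of the 4 inflammatory targets, *PTGS2*, the inducible cyclooxygenase COX-2 of prostaglandin synthesis, had 9.13 and 8.97 scaled RPKM in NC and 21.1 and 21.5 in si-circZFR. Replicates were almost equal in each group (ratio 2.35, log2FC 1.15 ± 0.15, FDR = 0.0691). *PTGES*, the prostaglandin E synthase that acts after COX-2, was lower in both si-circZFR libraries, at 99.6 and 109 against 73.8 and 87.8 (log2FC −0.37 ± 0.19, FDR = 0.304). *SOD2*, the manganese superoxide dismutase of mitochondria, had 82.0 and 80.2 in NC and 121 and 139 in si-circZFR (ratio 1.61, log2FC 0.67 ± 0.18, FDR = 0.130). *ICAM1*, an adhesion molecule for white blood cells, had 13.1 and 12.7 in NC and 8.33 and 8.40 in si-circZFR (ratio 0.651, log2FC −0.56 ± 0.15, FDR = 0.127).

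**Figure D4:**
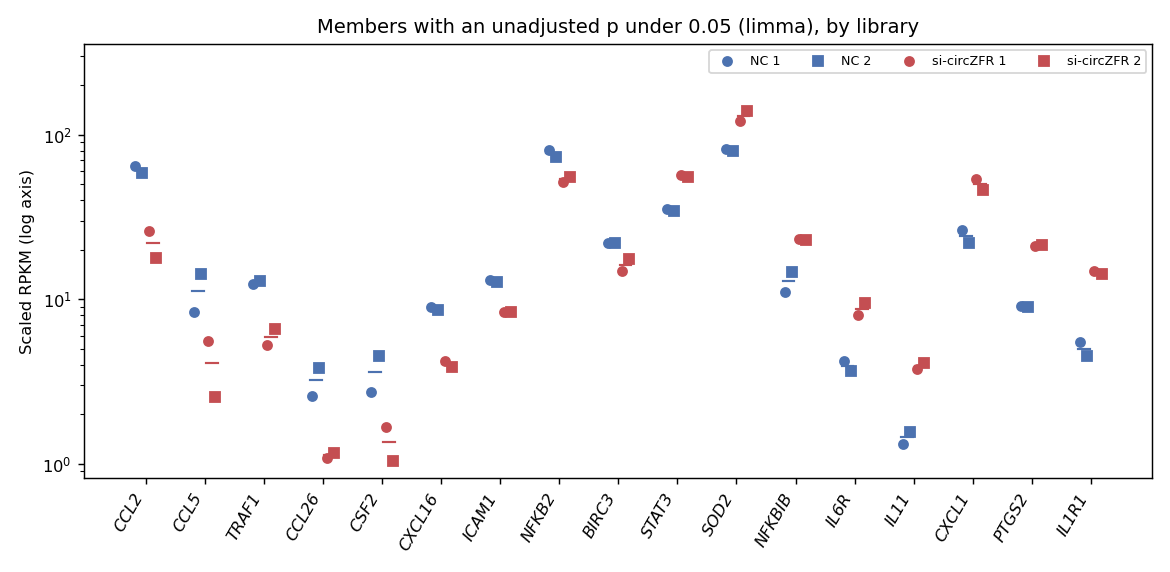
Scaled RPKM (log axis) of the 17 genes with an unadjusted p under 0.05 (limma), in order of log2FC from *CCL2* to *IL1R1*, with 1 point for each library (blue for NC, red for si-circZFR, circles for replicate 1 and squares for replicate 2) and a line at each group's mean. In all 17 the 2 groups do not overlap, and their FDR runs from 0.0661 to 0.216.

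Other genes of these pathways were read from 4 lists that hold none of the 59. None of their genes was called by limma, against 0.0576% of all genes tested. Among 34 tested NF-κB and TNF target genes, 12 (35.3%) were higher and 4 (11.8%) lower at an unadjusted p under 0.05, against 10.1% and 11.5% of all genes tested, with a median log2FC of 0.29. The smallest p values belonged to *GADD45B*, a stress gene (12.6 and 16.2 scaled RPKM in NC, 5.96 and 5.88 in si-circZFR, log2FC −1.15, FDR = 0.0782), *SDC4*, a heparan sulphate proteoglycan (8.91 and 7.73 against 16.6 and 21.7, log2FC 1.10, FDR = 0.0820), *CEBPD*, a transcription factor of the acute phase (5.66 and 7.25 against 14.5 and 13.6, log2FC 1.02, FDR = 0.0820), and *FOSL1*, an AP-1 subunit (141 and 145 against 81.6 and 69.2, log2FC −0.92, FDR = 0.0922). These again had both signs. Among 30 NF-κB signalling adaptors, kinases and ubiquitin enzymes, 3 (10%) were higher and 2 (6.67%) lower, shares near or below those of all genes, with a median of 0.03. *BCL3*, which binds p50 and p52 dimers, had 36.7 and 27.5 in NC and 60.2 and 51.0 in si-circZFR (log2FC 0.78, FDR = 0.126). *MAP3K14*, the kinase NIK that starts the processing of p100, had 32.0 and 24.8 against 20.5 and 16.7 (log2FC −0.58, FDR = 0.180). *TAB1* and *TRAF3* were higher in both si-circZFR libraries (log2FC 0.54 and 0.65).

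Among 28 tested JAK-STAT and other cytokine receptor genes, 4 (14.3%) were higher and 1 (3.57%) lower at an unadjusted p under 0.05, beside 10.1% and 11.5% of all genes, with a median log2FC of 0.02. *LTBR*, the lymphotoxin receptor that feeds the p100 branch, had 91.4 and 98.2 scaled RPKM in NC and 151 and 164 in si-circZFR (log2FC 0.73, FDR = 0.119). *TNFRSF10B*, a receptor for TRAIL, had 65.3 and 52.6 against 33.0 and 37.5 (log2FC −0.72, FDR = 0.125). *SOCS6* and *JAK2* were higher in both si-circZFR libraries (log2FC 0.42 and 0.58). Of 20 tested interferon-stimulated genes, 1 (5%) was higher and 0 lower by limma, below the 10.1% and 11.5% of all genes, with a median of 0.10. It was *MX1*, an antiviral GTPase, with 2.11 and 2.11 against 3.50 and 4.17 (log2FC 0.63, FDR = 0.138).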

How the data were processed

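The authors sequenced total RNA libraries on the Ion Proton. They deposited 1 value per gene and library, in RPKM as far as the values show (the header names no unit). The article gives hg38 and removal of batch effects by SVA, and the submitters' processing notes give GRCh37. The aligner, the annotation, the use of strand and the counting of reads with several matches are not given in the sources used here. Reads were recovered from the RPKM steps, at the smallest gene length that gave whole reads (24282 of 24289 genes whole within 0.02 reads). Wholeness was thus the rule of the search and not a check of single genes. Where the counts of a gene share a factor, its reads come out too few.

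RPKM values were divided by factors from trimmed means (30% of ratios, 5% of levels, 0.904 to 1.11), and log2(scaled RPKM + 1) was tested by limma with a trended prior variance, using R 4.3.3, limma 3.58.1, Python 3.11.15, numpy 2.4.6, pandas 2.3.3 and matplotlib 3.10.9. The fit was first run on simulated data with large set changes, as a check of the code and not of its performance on these libraries. With 2 libraries against 2, an exact permutation test cannot go below p = 0.333, so none is given. Alternatives covered scaling, filter, pseudocount, replicate block, length, variance trend, limma-voom and leaving out each library.

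The genes, lists and tests were chosen with earlier results of these data known. Values in every library are given for genes tested with an unadjusted p under 0.05, the 5 of highest level, the 5 of largest |log2FC| and their partners in a complex or as ligand and receptor, and for up to 4 genes a list with the smallest p. Other genes named were chosen after their values were seen. Gene positions and untranslated regions came from GENCODE (GRCh38) and promoters from RefSeq (GRCh38.p14). No coordinate was taken from the authors' files. Some marker and sequence results are not reported here.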

Additional observations from a re-analysis of the deposited data

How the results depend on the processing

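The 17 genes with an unadjusted p under 0.05 kept their direction in all 15 alternatives. They were picked from these same libraries and their groups did not overlap, so few settings could have reversed them. Of 255 values, 238 stayed under 0.05 and 17 did not, those of *BIRC3*, *NFKB2*, *ICAM1*, *CCL5*, *CSF2* and *SOD2*. The length correction changed the size of some of these differences. It moved log2FC from −0.97 to −0.55 for *CCL26*, from −0.96 to −0.62 for *CSF2* and from −1.48 to −1.12 for *CCL2*. Among higher genes, *IL1R1* moved from 1.37 to 1.26, *PTGS2* from 1.15 to 1.05, *IL6R* from 0.98 to 0.85 and *STAT3* from 0.67 to 0.55. Others moved away from 0, among them *TRAF1* (−0.98 to −1.08), *BIRC3* (−0.42 to −0.56) and *CXCL1* (1.02 to 1.21). The remaining higher genes, *SOD2* (0.67 to 0.78), *NFKBIB* (0.81 to 0.83) and *IL11* (1.01 to 1.03), also moved away from 0. Calls (FDR under 0.05, |log2FC| over 1) depended strongly on the setting. Of all genes, 8 were called, and 0 without a filter, 179 with a filter of CPM over 1, 2 and 5 with pseudocounts of 0.1 and 0.5, 14 with a length correction, 1 without the variance trend, 304 by limma-voom and 0 to 937 when 1 library was left out, of which 937 came without NC 1. Of the 59 genes, 0 were called, and 3 with the CPM filter (*CCL2*, *IL1R1*, *PTGS2*), 8 by limma-voom and 0 to 8 when 1 library was left out, the 8 without NC 1 (*CCL2*, *CCL26*, *CSF2*, *CXCL1*, *IL1R1*, *IL6R*, *PTGS2*, *TRAF1*). The cause was not tested. The numbers higher and lower at an unadjusted p under 0.05 ran from 7 to 13 (13 without NC 1) and from 5 to 10 (5 without si-circZFR 2) when 1 library was left out. With a single library in a group, that library is assumed to vary like the other group. The replicate numbers are not known to mark pairs of samples. The correlation of deviations across genes was 0.07, taken without the length correction and with only 2 pairs. Whether same-numbered libraries share an effect cannot be told from it. With the replicate block, 63 genes were called, 2 of the 59 among them (*CCL2*, *IL1R1*), and with the length correction and the block 291 and 6 (*CCL2*, *CXCL1*, *IL11*, *IL1R1*, *PTGS2*, *TRAF1*).

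The median log2FC of 0.07 was 0.24 by library size alone, where the median of all genes moved to 0.15, and 0.00014 without a filter. It ran from −0.11 (without NC 2) to 0.076 when 1 library was left out. Of the 35 genes whose single values were recomputed, 9 reversed in sign in 20 values, and none of these 9 had a p under 0.05 in the reported test (*LIF* did without NC 1, and *CXCL2* and *CXCL8* without NC 2). With the length correction, with or without the block, log2FC was −0.032 for *TNFAIP2*, −0.069 for *IKBKB* and 0.078 for *CXCL3*, and by library size it was 0.12 for *NFKB1*, 0.032 for *IKBKG* and 0.032 for *CXCL3*. When 1 library was left out, log2FC ran from −0.23 to 0.36 for *TNFAIP2*, −0.20 to 0.23 for *IKBKB*, −0.17 to 0.74 for *LIF*, −0.46 to 0.028 for *CXCL2*, −0.25 to 0.015 for *CXCL3*, −0.11 to 0.29 for *CXCL5* and −0.16 to 0.54 for *CXCL8*. For *NFKB1* it ran from −0.11 to 0.012 and for *IKBKG* from −0.23 to 0.031.

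Depth limits the low genes. *CCL26*, *IL6* and *CSF2* had 57, 78 and 91 reads over the 4 libraries, under 100 each, and the 6 genes that were not tested cannot be said to be unchanged. With 2 libraries a group, each SD rests on 1 difference.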
